A study of Mus musculus with 12 samples.

Results

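The 35 genes described here are interferon-induced genes and genes of antigen presentation by MHC class I. They were chosen by name, to ask whether the low signal of Bst2 in fetal XY gonads that express a Foxl2 transgene was shared by other genes of the interferon response. Of the 35 genes, 34 had a row of their own among the 30701 genes named in the array's value table. Ifi44 was not analysed here. Where a gene had several rows, the row with the highest mean over all 12 arrays was taken. Because the difference of Bst2 posed the question, its values are given as a description with no test, and counts are over the other 33 measured genes.

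The gonads came from mouse embryos of 14.5 days post coitum, and their RNA was read on a 1-colour array, the Affymetrix Mouse Transcriptome Array 1.0, with 4 arrays in each of 3 groups. Each array held the RNA of 1 pair of gonads, freed of the mesonephros, and counts as 1 biological replicate. XY FOXL2+ gonads were XY, with 1 Sf1-cre transgene (+/Tg) and 1 copy of the allele Rosa26-CAG-LSL-Foxl2 (+/f), in which the CAG promoter drives Foxl2 once Cre has removed a stop cassette. XX control and XY control gonads were Rosa26+/+ and also carried Sf1-cre (+/Tg). All embryos came from 1 cross on a mixed 129Sv and C57Bl/6J background. Sf1-cre acts in somatic cells of the fetal gonad. The study asks how FOXL2, a transcription factor of granulosa cells, changes the somatic cells of the fetal testis. The labels give no litter, day or batch.

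Interferons are cytokines that signal through receptor-bound JAK kinases. Type I interferons bind IFNAR1 and IFNAR2 and activate STAT2, which acts with IRF9 at interferon-stimulated response elements (ISRE) in promoters of antiviral genes. Interferon gamma acts at gamma-activated sites (GAS) and through IRF1, and raises the proteasome subunits, peptide transporters and class I chains that present antigen. In most tissues without infection a low basal activity of the same pathway sets the level of these genes.

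The promoters of 5 genes are printed because they set Bst2 beside a gene that was also lower (Stat2), a gene that was higher (Gbp2) and a pair of standard interferon targets whose signal was low in every group (Isg15 and Ifit1). Each runs from 250 bases before to 50 bases after the gene's start on the gene's own strand, from RefSeq on GRCm38.p6. Capitals mark the ISRE core, searched on both strands as a pair of GAAA half-sites with any 2 bases between them, which reads as a pair of TTTC on the other strand. The regions are chr8:71537423-71537722 on the minus strand for Bst2, chr10:128270248-128270547 on the plus strand for Stat2, chr3:142620413-142620712 on the plus strand for Gbp2, chr4:156200769-156201068 on the minus strand for Isg15 and chr19:34640639-34640938 on the plus strand for Ifit1.
Bst2: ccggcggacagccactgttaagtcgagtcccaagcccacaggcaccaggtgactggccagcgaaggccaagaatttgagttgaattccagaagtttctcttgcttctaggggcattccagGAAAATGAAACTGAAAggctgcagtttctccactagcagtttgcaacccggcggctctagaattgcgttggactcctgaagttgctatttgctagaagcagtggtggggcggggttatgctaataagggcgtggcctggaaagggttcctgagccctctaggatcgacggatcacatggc
Stat2: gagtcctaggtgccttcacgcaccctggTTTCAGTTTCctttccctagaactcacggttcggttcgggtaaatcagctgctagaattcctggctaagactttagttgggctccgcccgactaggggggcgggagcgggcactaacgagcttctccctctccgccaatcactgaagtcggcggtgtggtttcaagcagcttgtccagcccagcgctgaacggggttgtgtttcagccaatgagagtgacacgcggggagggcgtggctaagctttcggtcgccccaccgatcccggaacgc
Gbp2: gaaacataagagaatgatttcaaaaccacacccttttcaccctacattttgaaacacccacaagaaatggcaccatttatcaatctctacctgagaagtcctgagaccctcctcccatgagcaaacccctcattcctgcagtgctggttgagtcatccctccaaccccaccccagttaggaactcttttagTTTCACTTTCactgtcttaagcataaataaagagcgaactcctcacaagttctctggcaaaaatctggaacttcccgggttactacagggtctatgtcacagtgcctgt
Isg15: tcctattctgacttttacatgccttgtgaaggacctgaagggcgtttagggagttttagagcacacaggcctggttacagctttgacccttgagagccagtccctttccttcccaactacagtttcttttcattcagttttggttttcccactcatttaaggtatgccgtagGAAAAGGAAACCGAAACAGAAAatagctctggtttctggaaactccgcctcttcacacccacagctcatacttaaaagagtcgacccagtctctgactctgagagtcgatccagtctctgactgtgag
Ifit1: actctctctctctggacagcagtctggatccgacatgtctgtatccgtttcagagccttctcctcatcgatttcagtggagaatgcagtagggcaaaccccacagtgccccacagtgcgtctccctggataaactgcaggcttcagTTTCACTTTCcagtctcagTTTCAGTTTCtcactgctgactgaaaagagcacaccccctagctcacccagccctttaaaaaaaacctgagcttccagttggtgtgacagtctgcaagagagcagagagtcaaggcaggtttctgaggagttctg

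Counted from the start, the ISRE cores begin at -130 and -124 in Bst2, where they overlap, at -222 in Stat2, at -59 in Gbp2, at -78, -72 and -66 in Isg15, where they overlap, and at -104 and -85 in Ifit1. The core was in 1131 of 32851 promoters of the same length (3.44%) and in those of 11 of the 25 listed genes that had a promoter in the table: B2m, Bst2, Gbp2, Ifih1, Ifit1, Ifit3, Ifitm2, Ifitm3, Isg15, Rsad2 and Stat2. The GAS letters TTCNNNGAA, which read the same on both strands, were in 2726 promoters (8.3%) and in those of 6 of the 25 genes: Bst2, Ifi35, Ifit2, Ifitm3, Irf1 and Psmb8. In Bst2 the GAS match begins at -136 and overlaps the first ISRE core. A match is a description of letters and not a site of binding.

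Bst2, the membrane protein tetherin that holds budding virus particles at the cell surface, had signals of 10, 10.99, 11.12 and 11.27 on the log2 scale in XY FOXL2+ gonads. In XX controls they were 12.53, 13.58, 13.16 and 13.12, and in XY controls 12.41, 12.01, 12.96 and 12.87. Every XY FOXL2+ array lay below every array of both controls, with replicate 1 the lowest, while the XX and XY controls overlapped. The mean was 10.85 ± 0.57 in XY FOXL2+ gonads, 13.10 ± 0.43 in XX controls and 12.56 ± 0.44 in XY controls (SD, n = 4 each). XY FOXL2+ minus XY control was -1.71 (SE 0.30), a 3.28-fold lower signal. XY FOXL2+ minus XX control was -2.25 (SE 0.30), a 4.76-fold lower signal, and XX control minus XY control was 0.54 (SE 0.30). Among the 30701 named genes, 125 (0.407%) had a log2 difference as low as or lower than that of Bst2 against XY controls, and 18 (0.0586%) against XX controls. Bst2 was chosen for its low signal, so its low rank follows from that choice and is a description only. These comparisons also share arrays, so the pair of low values is not independent.

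In bulk gonads, fewer cells of a type and less RNA per cell cannot be told apart. Bst2 is also known as a marker of plasmacytoid dendritic cells, and the 5 measured markers of plasmacytoid dendritic cells and lymphocytes had a mean signal per array of 5.79 to 6.03 in XY FOXL2+ gonads, 5.74 to 5.89 in XX controls and 5.74 to 5.89 in XY controls. None of the 5 passed the limma test in any comparison, with 0 at an unadjusted p under 0.05, and all 5 had a difference above 0 between XY FOXL2+ and XY control gonads. All 5 had a mean signal over the 12 arrays at or under that of the highest Y-linked gene in XX controls (6.94). Whether these markers could have read lower after a fall of these cells is therefore not known. The part of these cells in the Bst2 values was not tested. Somatic markers differed: the 7 Sertoli markers averaged 7.43 to 9.72 per array in XY FOXL2+ gonads, 6.55 to 6.72 in XX controls and 11.49 to 11.84 in XY controls. The 6 granulosa markers averaged 8.27 to 10.53 in XY FOXL2+ gonads, 10.73 to 11.05 in XX controls and 7.73 to 7.77 in XY controls, and the 4 measured fetal Leydig markers 7.91 to 11.17, 7.83 to 8.07 and 15.78 to 16.17 in the same order of groups. The part of the somatic markers in the Bst2 values was not tested either. Foxl2 itself read 7.67, 8.62, 7.18 and 6.72 in XY FOXL2+ gonads, 8.08, 7.30, 7.14 and 7.39 in XX controls and 5.07, 5.55, 5.44 and 5.33 in XY controls, and the sources do not say whether its probes read the transgene or the endogenous gene.

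None of the 33 other genes was lower in XY FOXL2+ gonads by as much as Bst2. Of all named genes, 0.407% were as low against XY controls and 0.0586% against XX controls. With shares this small, and Bst2 chosen for its low signal, a match among 33 genes was unlikely from the start. The contrast in size is therefore a description only. Between XY FOXL2+ and XY control gonads, 2 of the 33 other genes were lower past the test, Stat2 and Irf1, beside 4.71% of all named genes. 1 gene was higher, Gbp2, beside 3.38% of all named genes, and 30 passed in neither direction. The test was limma with Benjamini-Hochberg adjustment over all 65956 rows that are not control sets, two-sided, with a threshold of 0.05 on the adjusted p. Over all rows, 34.5% of the calls in this comparison were higher, and 45.1% under quantile normalization. The sign of the difference was negative for 13 genes and positive for 20, and the median log2 difference was 0.07, beside 0.02 for all named genes. The lowest of the 33 log2 differences was -0.55 (Stat2), beside -1.71 for Bst2. The number of arrays limits the precision of every value here.

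**Figure D1:**
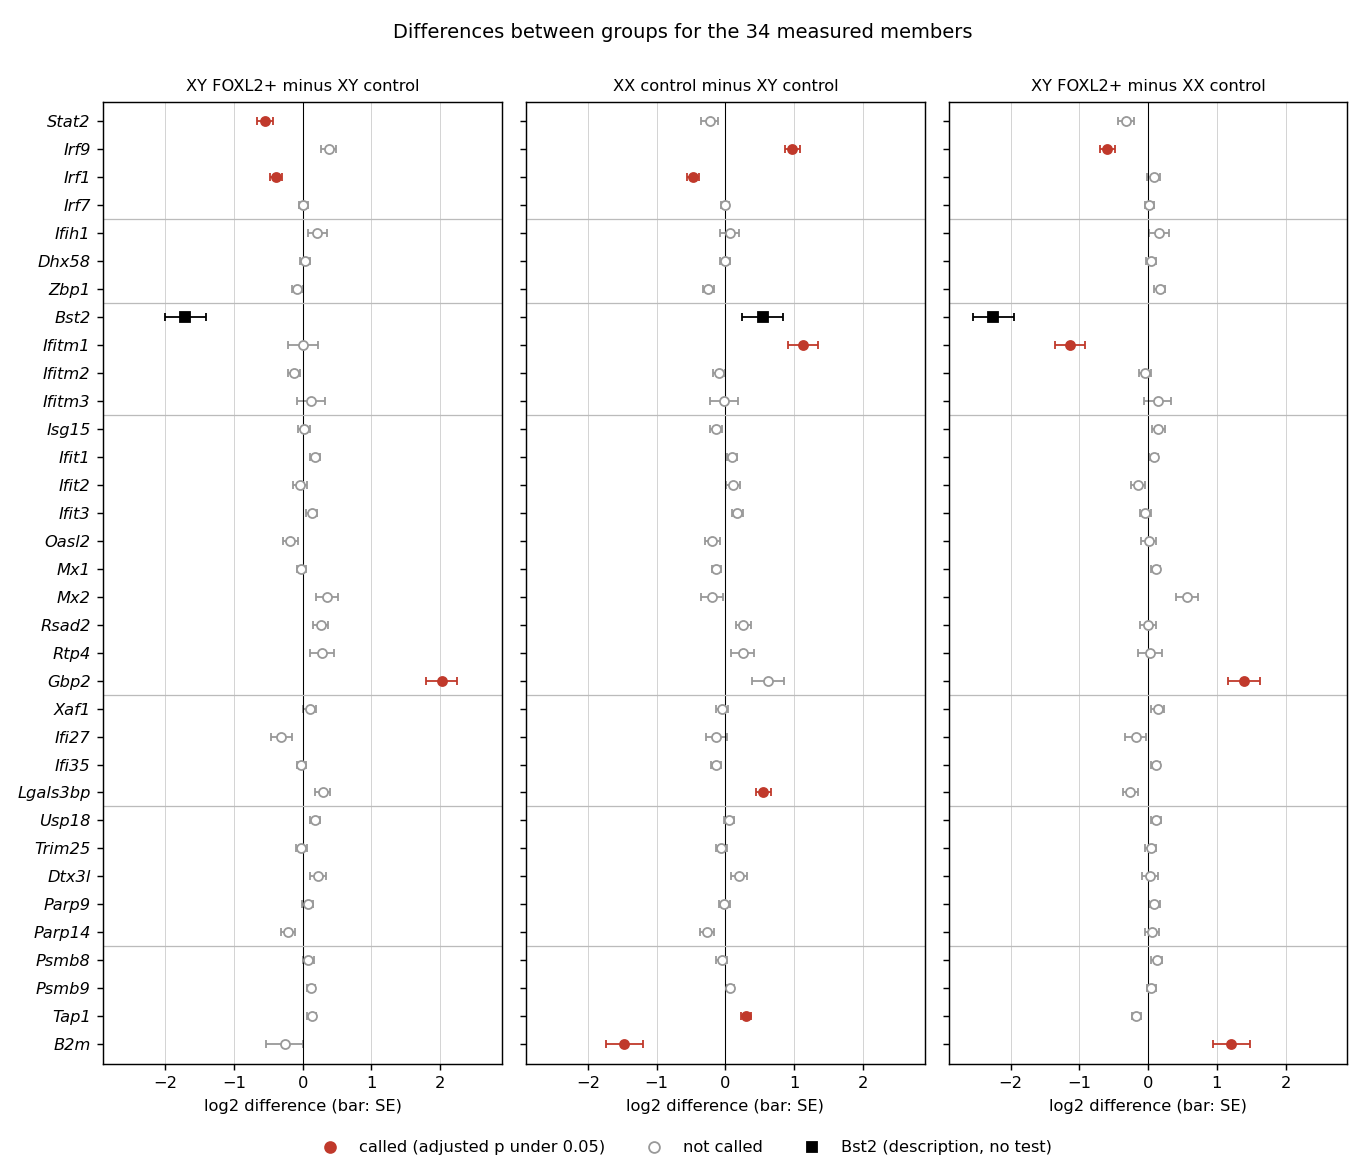
Log2 difference with its standard error (horizontal axis) for each of the 34 measured genes (rows), in 1 panel per comparison, with 4 arrays per group. Red points passed the limma test at an adjusted p of 0.05, open grey points did not, and the black square is Bst2, which was not tested. Bst2 lies at -1.71 and Gbp2 at 2.02 for XY FOXL2+ minus XY control, with most other genes near 0.

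Among the transducers and regulators, Stat2, which carries the signal of the type I receptor into the nucleus, read 8.99, 9.03, 8.69 and 8.62 in XY FOXL2+ gonads, against 9.34, 9.17, 9.48 and 9.55 in XY controls. XX controls read 9.21, 9.26, 9.06 and 9.08. Each XY FOXL2+ array lay below each array of both controls, as for Bst2. The difference between XY FOXL2+ and XY control gonads was -0.55 (SE 0.12, a 1.47-fold lower signal, limma adjusted p = 0.0114), and it missed the threshold when only these 2 groups were fitted (adjusted p = 0.0512). XY FOXL2+ minus XX control was -0.32 (adjusted p = 0.147) and XX control minus XY control was -0.23 (adjusted p = 0.227), neither past the test. With array weights both passed, at -0.40 (limma adjusted p = 0.0287) and -0.27 (limma adjusted p = 0.0484).

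Irf1, a transcription factor induced by interferon gamma, read 7.87, 7.76, 7.87 and 8.0 in XY FOXL2+ gonads, 7.66, 7.84, 7.89 and 7.81 in XX controls and 8.16, 8.49, 8.16 and 8.25 in XY controls. Both XY FOXL2+ and XX gonads lay wholly below XY controls and overlapped each other. Against XY controls the log2 difference was -0.39 in XY FOXL2+ gonads (SE 0.09, limma adjusted p = 0.024) and -0.47 in XX controls (SE 0.09, limma adjusted p = 0.0036). The call in XY FOXL2+ gonads was lost under quantile normalization (limma adjusted p = 0.102), with only these groups fitted (0.0798) and without XY control replicate 2 (0.0624), XY control replicate 4 (0.0531) or XY FOXL2+ replicate 2 (0.0636). XY FOXL2+ minus XX control was 0.08 (adjusted p = 0.745), unlike Bst2, whose mean was highest in XX controls.

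Irf9, the DNA-binding partner of STAT2, read 7.59, 7.84, 7.44 and 7.25 in XY FOXL2+ gonads, 8.02, 8.17, 8.15 and 8.15 in XX controls and 7.10, 7.14, 7.32 and 7.06 in XY controls. XX controls lay above all other arrays, and XY FOXL2+ arrays overlapped XY controls. XX control minus XY control was 0.97 (SE 0.11, 1.96-fold, limma adjusted p = 7.26e-05) and XY FOXL2+ minus XX control was -0.59 (SE 0.11, 1.51-fold lower, limma adjusted p = 0.00956). XY FOXL2+ minus XY control was 0.38 (limma adjusted p = 0.0685), and passed under quantile normalization (0.0455), with rows above the median signal only (0.0454) and without XY FOXL2+ replicate 4 (0.0195). Irf7, the regulator that amplifies the type I response, read 5.57 to 5.66 in XY FOXL2+ gonads, 5.58 to 5.65 in XX controls and 5.57 to 5.65 in XY controls.

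Of the 3 other genes of the membrane group, the IFITM proteins that block virus entry, Ifitm1 read 8.17, 8.82, 7.41 and 7.85 in XY FOXL2+ gonads, 9.16, 9.29, 9.20 and 9.12 in XX controls and 7.97, 8.23, 8.09 and 7.97 in XY controls. XX controls lay above all other arrays. The difference XX control minus XY control was 1.13 (SE 0.22, 2.19-fold, limma adjusted p = 0.00268), XY FOXL2+ minus XX control was -1.13 (SE 0.22, 2.19-fold lower, limma adjusted p = 0.00938) and XY FOXL2+ minus XY control was -0.00 (limma adjusted p = 0.995). Ifitm2, the highest signal of the set, averaged 15.41 ± 0.14 in XY FOXL2+ gonads, 15.45 ± 0.14 in XX controls and 15.54 ± 0.08 in XY controls (SD, n = 4 each), and Ifitm3 averaged 9.23 ± 0.47, 9.09 ± 0.22 and 9.11 ± 0.19 in the same order. Neither passed the test in any comparison. Genes of this family have near-identical stretches, as do Ifit1 and Ifit3, Mx1 and Mx2 and the class I genes, so their probes may read each other's RNA.

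**Figure D2:**
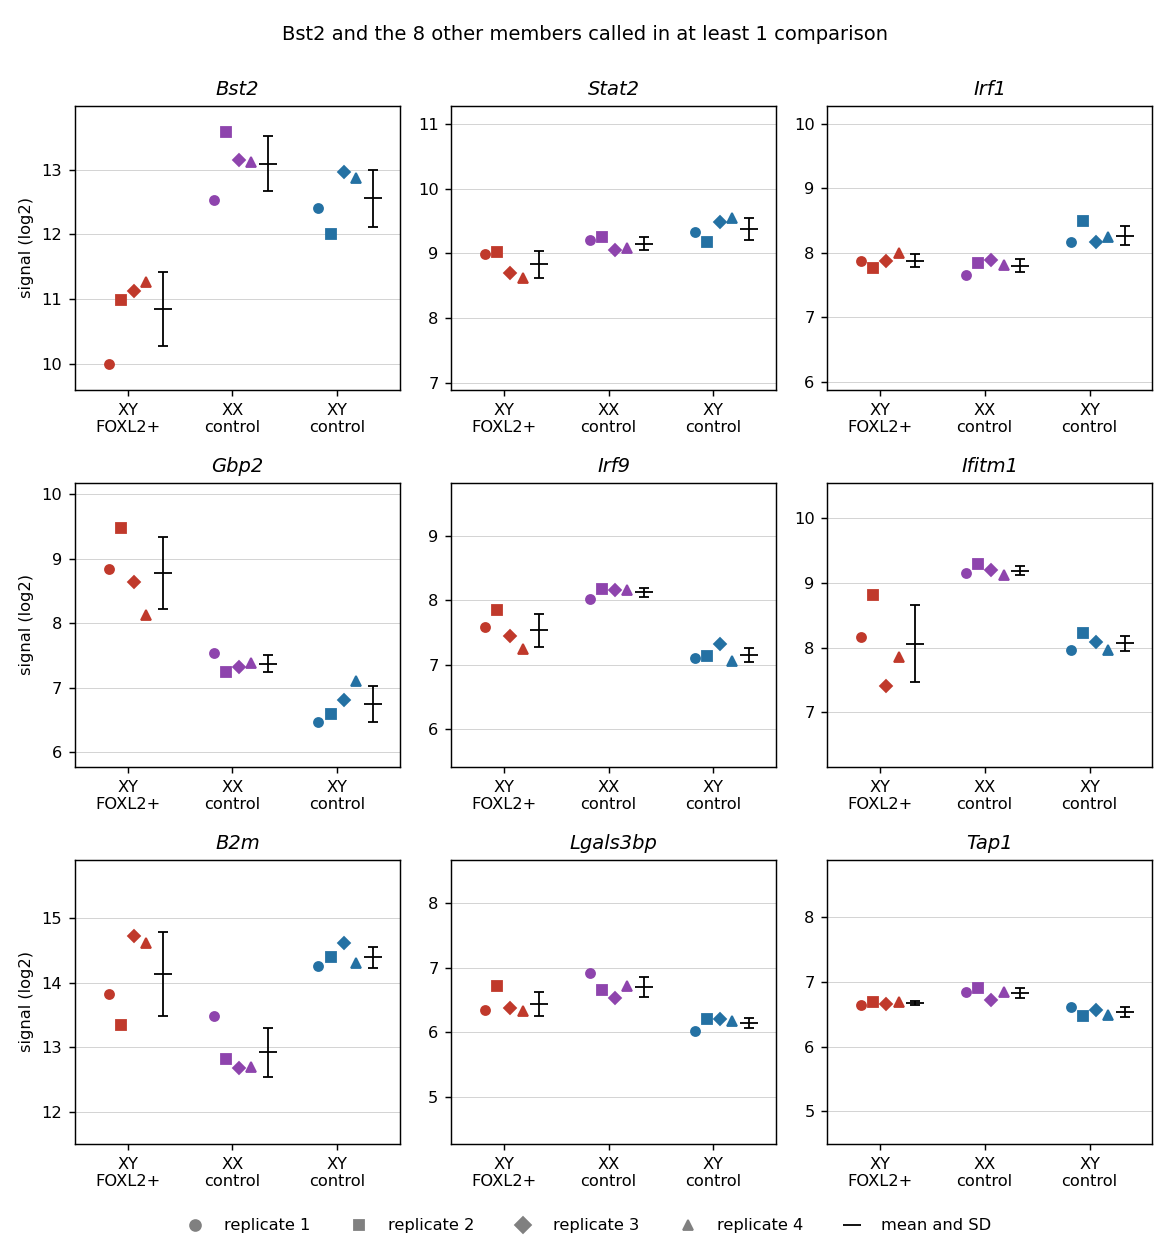
Signal on the log2 scale (vertical axis) of Bst2 and of the 8 other genes that passed the limma test in at least 1 comparison, in XY FOXL2+, XX control and XY control gonads, in that order from the left. Symbols are the 4 replicates and bars the mean and SD. Bst2 and Stat2 have every XY FOXL2+ array below both controls, Gbp2 has every XY FOXL2+ array above both.

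Gbp2, a guanylate-binding protein that attacks the vacuoles of intracellular microbes, was higher in XY FOXL2+ gonads than in both controls. It read 8.85, 9.48, 8.64 and 8.13 in XY FOXL2+ gonads, 7.54, 7.24, 7.33 and 7.38 in XX controls and 6.47, 6.60, 6.82 and 7.11 in XY controls. The 3 groups did not overlap. XY FOXL2+ minus XY control was 2.02 (SE 0.23, 4.07-fold, limma adjusted p = 0.000129) and XY FOXL2+ minus XX control was 1.40 (SE 0.23, 2.64-fold, limma adjusted p = 0.0034). Both calls held under all 19 alternative settings. XX control minus XY control was 0.62 (SE 0.23, limma adjusted p = 0.0829), and passed with only the controls fitted (0.00615), with array weights (0.0214) and without XY FOXL2+ replicate 2 (0.0205) or 4 (0.0322).

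The other 9 antiviral effectors of the RNA and replication group passed in no comparison of the fit over 12 arrays. Under alternatives, Rsad2 passed as higher in XX than in XY controls with only these groups fitted, with array weights and without XY FOXL2+ replicate 2 (limma adjusted p = 0.0484, 0.0263 and 0.0446), and Ifit3 with array weights and without XY control replicate 2 (limma adjusted p = 0.0365 and 0.0397). Isg15, the ubiquitin-like protein joined to other proteins after interferon, read 5.43, 5.54, 5.69 and 5.53 in XY FOXL2+ gonads, 5.47, 5.27, 5.35 and 5.48 in XX controls and 5.48, 5.36, 5.61 and 5.67 in XY controls. Ifit1, which binds viral RNA lacking cap methylation, read 5.32, 5.50, 5.46 and 5.50 in XY FOXL2+ gonads, 5.38, 5.40, 5.32 and 5.34 in XX controls and 5.33, 5.11, 5.28 and 5.34 in XY controls. The groups overlapped for both genes. XY FOXL2+ minus XY control was 0.02 for Isg15 (adjusted p = 0.95) and 0.18 for Ifit1 (adjusted p = 0.156). Mx2, a dynamin-like GTPase, read 6.24, 6.26, 6.95 and 7.05 in XY FOXL2+ gonads, 6.15, 5.93, 6.03 and 6.15 in XX controls and 6.25, 6.24, 6.30 and 6.27 in XY controls. XY FOXL2+ replicates 3 and 4 were higher than replicates 1 and 2. Its XY FOXL2+ minus XX control difference was 0.56 (limma adjusted p = 0.0712) and passed with array weights (0.00322, and 0.0328 against XY controls), with rows above the median signal only (0.0496) and without XY FOXL2+ replicate 1 (0.0208) or 2 (0.0184).

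No sensor of viral nucleic acid passed the limma test in any comparison (Ifih1, Dhx58 and Zbp1, with log2 differences of -0.25 to 0.21), and none of the 5 regulators of ubiquitin, ISG15 and ADP-ribose did. At an unadjusted p under 0.05, 1 sensor and 1 regulator differed between XX and XY controls and 1 regulator between XY FOXL2+ and XY control gonads. The share of all named genes at that unadjusted threshold was not computed. With array weights, Zbp1 and Parp14 passed as lower in XX than in XY controls (limma adjusted p = 0.0309 and 0.0292). Trim25, a ubiquitin ligase that activates RNA sensing, averaged 9.92 ± 0.13 in XY FOXL2+ gonads, 9.88 ± 0.03 in XX controls and 9.94 ± 0.06 in XY controls (SD, n = 4 each). Usp18, which removes ISG15 and dampens the receptor, averaged 5.66 ± 0.09, 5.53 ± 0.08 and 5.48 ± 0.08 in the same order.

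Of the 4 measured genes in the group of other induced genes, Lgals3bp, a secreted galectin-binding protein, was higher in XX than in XY controls past the test. It read 6.34, 6.71, 6.38 and 6.33 in XY FOXL2+ gonads, 6.92, 6.65, 6.53 and 6.71 in XX controls and 6.02, 6.20, 6.20 and 6.17 in XY controls. The excess of XX over XY controls was 0.55 (SE 0.11, 1.47-fold, limma adjusted p = 0.0024). XY FOXL2+ arrays lay above all XY control arrays, with a difference of 0.29 that did not pass (adjusted p = 0.134). Against XX controls the difference was -0.26 (limma adjusted p = 0.193), and without XY FOXL2+ replicate 2, the highest array of its group, it was -0.35 (limma adjusted p = 0.0344). Ifi27, a mitochondrial protein, averaged 9.32 ± 0.27 in XY FOXL2+ gonads and 9.63 ± 0.24 in XY controls (SD, n = 4 each), a difference of -0.31 (limma adjusted p = 0.284).

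Of the 4 genes of antigen presentation, B2m, the light chain of MHC class I, read 13.82, 13.35, 14.72 and 14.62 in XY FOXL2+ gonads, 13.49, 12.82, 12.68 and 12.70 in XX controls and 14.26, 14.39, 14.62 and 14.30 in XY controls. XY FOXL2+ replicates 1, 3 and 4 lay above all XX controls and replicate 2 overlapped them, while replicates 1 and 2 lay below all XY controls. XX control minus XY control was -1.47 (SE 0.27, 2.77-fold lower, limma adjusted p = 0.00199), and XY FOXL2+ minus XX control was 1.21 (SE 0.27, 2.31-fold, limma adjusted p = 0.0214). The call against XX controls was lost with only those groups fitted (limma adjusted p = 0.0761) and without XY FOXL2+ replicate 3 (0.0623) or 4 (0.0712) or XX control replicate 2 (0.0655), 3 (0.0708) or 4 (0.0672). XY FOXL2+ minus XY control was -0.26 (adjusted p = 0.66). The Sertoli marker Hsd17b3 read 8.60, 6.54, 10.41 and 10.45 in the same 4 XY FOXL2+ arrays, 6.07, 6.11, 6.06 and 6.26 in XX controls and 14.30, 14.42, 14.32 and 14.39 in XY controls, and its part in the B2m values was not tested.

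Tap1, a subunit of the peptide transporter, read 6.64, 6.69, 6.66 and 6.69 in XY FOXL2+ gonads, 6.85, 6.91, 6.72 and 6.84 in XX controls and 6.62, 6.47, 6.56 and 6.49 in XY controls. XX controls were higher than XY controls by 0.30 (SE 0.07, 1.23-fold, limma adjusted p = 0.00784). Psmb8 and Psmb9, catalytic subunits of the immunoproteasome, averaged 5.35 ± 0.10 and 5.84 ± 0.09 in XY FOXL2+ gonads, 5.22 ± 0.14 and 5.79 ± 0.01 in XX controls and 5.27 ± 0.08 and 5.71 ± 0.04 in XY controls (SD, n = 4 each), and passed in no comparison.

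Between XX and XY controls, 2 of the 33 genes were lower in XX controls (B2m and Irf1), beside 11.0% of named genes, and 4 were higher (Ifitm1, Irf9, Lgals3bp and Tap1), beside 10.2%. Over all rows, 41.3% of the calls between XX and XY controls were higher, and 53.2% under quantile normalization. The median difference was -0.02 both for the 33 genes and for all named genes. Between XY FOXL2+ gonads and XX controls, 2 were lower (Ifitm1 and Irf9), beside 3.32%, and 2 were higher (Gbp2 and B2m), beside 3.19%. The median difference was 0.05, beside 0.03 for all named genes. In all, 8 of the 33 genes passed in at least 1 comparison and 25 in none, where the largest absolute log2 difference was 0.56. The share of all named genes that passed in at least 1 comparison was not computed, so this count has no background beside it.

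Counted by whether the 4 arrays of each group overlapped, 2 genes were wholly lower in XY FOXL2+ gonads than in XY controls (Stat2 and Irf1), beside 7.43% of named genes, and 4 wholly higher (Gbp2, Lgals3bp, Psmb9 and Tap1), beside 7.3%. Between XX and XY controls 5 were wholly lower, beside 16.2%, and 6 wholly higher, beside 15.1%. Between XY FOXL2+ gonads and XX controls 4 were wholly lower (Stat2, Irf9, Ifitm1 and Tap1), beside 6.33%, and 2 wholly higher (Mx2 and Gbp2), beside 7.81%. Stat2 was the 1 gene of the 33 that, like Bst2, lay wholly below both controls, and Gbp2 the 1 gene that lay wholly above both. The share of all named genes that lay wholly below or wholly above both controls was not computed, so these counts have no background beside them.

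Many of the genes had signals that were not shown to be above background, and the table carries no detection calls. In XX controls, which have no Y chromosome, the Y-linked genes Eif2s3y, Uty, Kdm5d and Uba1y averaged 5.99, 6.24, 6.27 and 6.94. Of the 33 genes, 20 had a mean over the 12 arrays at or below the highest of these, from 5.21 to 6.76, and 13 lay above it, from 6.96 to 15.47. Of the 20 low genes, none passed the limma test between XY FOXL2+ gonads and either control. With an unadjusted p under 0.05 there were 5 against XY controls and 3 against XX controls. The share of all named genes at that unadjusted threshold was not computed, so these 2 counts have no background beside them. Under alternatives Mx2 passed as given above, and Lgals3bp passed against XX controls without XY FOXL2+ replicate 2. Between XX and XY controls 2 were higher in XX controls (Lgals3bp and Tap1), beside 10.2% of all named genes. Whether the 20 could have read lower is not known from these data. Of the 13 others, 2 fell and 1 rose in XY FOXL2+ gonads relative to XY controls, beside 4.71% and 3.38% of all named genes. The shares beside these counts cover genes of all signal levels and are not matched to the 20 or the 13. In the fit to the 32978 rows above the median signal, 3204 rows were lower and 1677 higher in XY FOXL2+ than in XY control gonads.

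**Figure D3:**
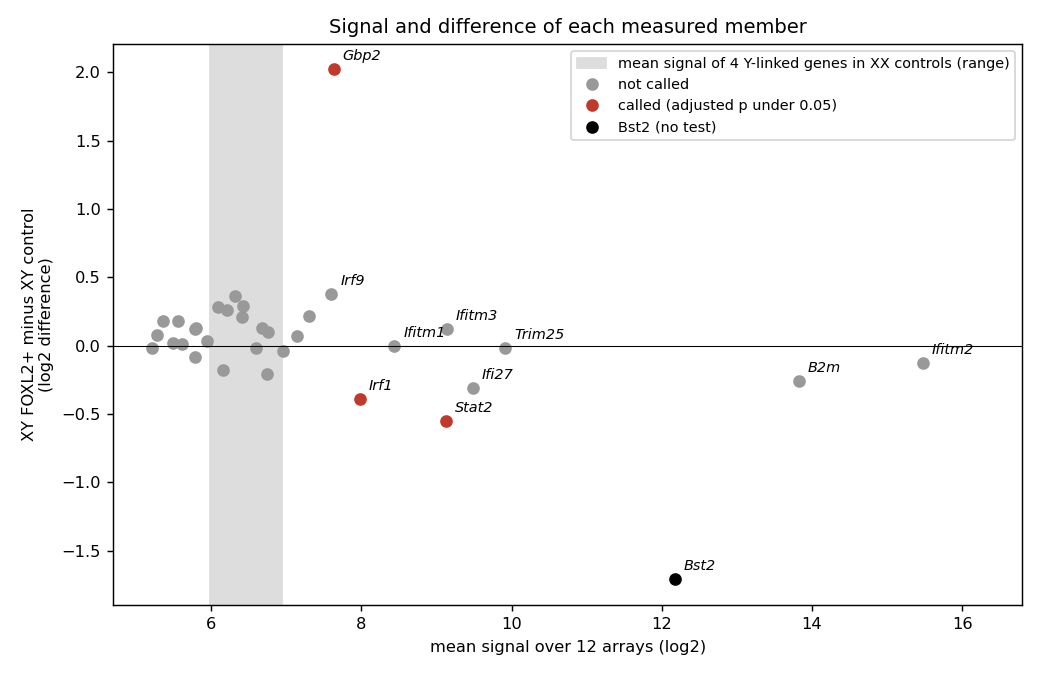
Mean signal over the 12 arrays on the log2 scale (horizontal axis) against the log2 difference XY FOXL2+ minus XY control (vertical axis) for the 34 measured genes. The grey band spans the mean signals of 4 Y-linked genes in XX controls, 5.99 to 6.94. Bst2 stands at -1.71 and Gbp2 at 2.02, and the 20 genes at or below the top of the band lie between -0.21 and 0.36.

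Other genes of the interferon pathway were counted in lists, of which 98 of 113 genes were measured. Against XY controls, 7 of them were lower and 6 higher in XY FOXL2+ gonads, beside 4.71% and 3.38% of all named genes. In XX against XY controls 17 were lower and 20 higher, beside 11.0% and 10.2%. In XY FOXL2+ gonads against XX controls 4 were lower and 4 higher, beside 3.32% and 3.19%. Among 11 receptor and kinase genes, Ifnar1, a chain of the type I receptor, read 13.01, 13.64, 12.66 and 12.74 in XY FOXL2+ gonads, 13.93, 13.93, 13.90 and 13.96 in XX controls and 12.57, 12.43, 12.47 and 12.51 in XY controls. The 3 groups did not overlap. XX control minus XY control was 1.43 (SE 0.17, limma adjusted p = 6.56e-05), XY FOXL2+ minus XX control was -0.92 (SE 0.17, limma adjusted p = 0.00667) and XY FOXL2+ minus XY control was 0.52 (limma adjusted p = 0.0897). Ifngr1, a chain of the gamma receptor, was higher in XY FOXL2+ than in XY control gonads (0.43, limma adjusted p = 0.0409), a call lost under 13 of 19 alternatives with adjusted p up to 0.132.

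The heavy chains of MHC class I, H2-K1 and H2-D1, were higher in XY FOXL2+ gonads and in XX controls than in XY controls. H2-K1 read 8.09, 9.25, 8.47 and 8.58 in XY FOXL2+ gonads, 8.99, 9.01, 8.99 and 8.74 in XX controls and 7.57, 7.27, 7.52 and 7.40 in XY controls. H2-D1 read 7.98, 8.67, 8.14 and 8.06 in XY FOXL2+ gonads, 8.43, 8.18, 8.39 and 8.16 in XX controls and 7.01, 7.04, 6.96 and 6.84 in XY controls. For both genes every XY FOXL2+ and XX array lay above every XY control array, while B2m, their partner chain, was lower in XX than in XY controls. XY FOXL2+ minus XY control was 1.16 for H2-K1 (SE 0.19, 2.23-fold, limma adjusted p = 0.00231) and 1.25 for H2-D1 (SE 0.14, 2.37-fold, limma adjusted p = 0.0001). Against XX controls, XY FOXL2+ gonads differed by -0.34 (limma adjusted p = 0.378) and -0.08 (limma adjusted p = 0.83) for the same genes. Of the 20 measured genes of this list, 2 rose and 1 fell in XY FOXL2+ gonads relative to XY controls, beside 3.38% and 4.71% of all named genes. The gene that fell was H2-Aa, at -0.40 (limma adjusted p = 0.00226), at signals below those of the Y-linked genes in XX controls.

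Among 42 other interferon-induced genes, 5 fell and 2 rose in XY FOXL2+ gonads relative to XY controls, beside 4.71% and 3.38% of all named genes. Cmpk2, a mitochondrial nucleotide kinase, read 7.35, 6.93, 7.01 and 6.97 in XY FOXL2+ gonads, 6.97, 6.76, 6.78 and 6.82 in XX controls and 7.87, 7.52, 8.0 and 7.92 in XY controls, with XY FOXL2+ minus XY control at -0.76 (SE 0.12, limma adjusted p = 0.00171). Pml, the scaffold of nuclear bodies, was lower at -0.50 (limma adjusted p = 0.0102, and 0.0616 under quantile normalization). Samhd1, a nucleotide hydrolase that limits retroviruses, was lower at -0.48 (limma adjusted p = 0.0149, and 0.0713 with only these groups fitted). Samhd1 read 11.45, 11.48, 11.12 and 11.21 in XY FOXL2+ gonads, 11.80, 11.86, 11.84 and 11.77 in XX controls and 11.58, 11.93, 11.76 and 11.91 in XY controls. Like Bst2 it lay wholly below both, a pattern whose share of all named genes was not computed. For Samhd1, XY FOXL2+ minus XX control was -0.50 (limma adjusted p = 0.0155, and 0.0549 without XY FOXL2+ replicate 4 and 0.0523 without XX control replicate 2). In the same comparison Oas2, a maker of the second messenger of RNase L, was lower at -0.48 (limma adjusted p = 0.00355), at signals of 5.25 to 5.52 in XY FOXL2+ gonads and 5.83 to 5.97 in XX controls, below the means of all 4 Y-linked genes in XX controls. Cxcl10, a chemokine, was higher at 0.32 (limma adjusted p = 0.0195), at signals lower still, and this call was lost under 4 alternatives. Erap1, which trims peptides for class I, was higher at 0.72 (limma adjusted p = 0.0121, and 0.0572 with only these groups fitted), and Tlr3, a sensor of double-stranded RNA, at 0.47 (limma adjusted p = 0.0131). Tlr3 and Oas2 differed from XY controls by -0.05 and 0.10 in XY FOXL2+ gonads (limma adjusted p = 0.822 and 0.517). XX control minus XY control was -0.52 for Tlr3 and 0.59 for Oas2 (limma adjusted p = 0.00191 and 0.000183).

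The larger counts between XX and XY controls held genes of several steps. Parp12, an ADP-ribosyltransferase, was 1.41 higher in XX controls (limma adjusted p = 0.00298) and the adaptors Sting1 and Mavs were 0.93 and 0.88 higher (limma adjusted p = 0.00305 and 0.00264). Cmpk2 was lower in XX controls at -0.99 (limma adjusted p = 7.97e-05), as were Nmi, the N-Myc interactor, at -0.89 (limma adjusted p = 0.0008) and Cgas, the DNA sensor, at -0.60 (limma adjusted p = 0.000872). Among the receptors and kinases, Il10rb, Jak2 and Ifngr2 were higher in XX controls by 0.55, 0.53 and 0.39, the call of Jak2 being lost under 7 alternatives, and Il10rb was lower in XY FOXL2+ gonads than in XX controls at -0.47 (limma adjusted p = 0.0134, and 0.0629 with only these groups fitted). Irf5, a regulator of inflammatory genes, and Tdrd7, a tudor domain protein, were higher in XX controls by 0.56 and 0.84. H2-K1 and H2-D1 were higher by 1.49 and 1.33, while H2-Aa, the chaperone Calr and the proteasome subunit Psmb7 were lower at -0.48, -0.46 and -0.44, the call of Calr being lost under quantile normalization (limma adjusted p = 0.0628). Cmpk2 was thus lower than in XY controls both in XY FOXL2+ gonads and in XX controls, and its XY FOXL2+ and XX arrays overlapped.

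Of the guanylate-binding proteins besides Gbp2, Gbp4 was higher in XY FOXL2+ than in XY control gonads (0.60, SE 0.09, limma adjusted p = 0.00186) and Gbp7 was higher than in XX controls (0.98, SE 0.13, limma adjusted p = 0.000994). Gbp4 read 7.35, 7.36, 7.56 and 7.30 in XY FOXL2+ gonads, 7.11, 7.06, 6.96 and 7.17 in XX controls and 6.92, 6.94, 6.71 and 6.60 in XY controls. Gbp7 against XY controls was 0.45 (limma adjusted p = 0.0555), and its XX control minus XY control difference was -0.53 (limma adjusted p = 0.0113). Gbp3 passed in no comparison of the fit over 12 arrays, and Gbp5 and Gbp6 were not measured. Of the 10 interferon genes, Ifnb1 was higher in XY FOXL2+ than in XY control gonads (0.48, limma adjusted p = 0.0221) at signals of 5.53 to 5.99 in XY FOXL2+ gonads and 5.19 to 5.58 in XY controls, at or below the signals of Y-linked genes in XX controls, and the call was lost under 5 alternatives. Of 13 measured sensing genes, Irf8, a factor of myeloid cells, was lower than in XY controls (-0.42, limma adjusted p = 0.014), at signals under that of the highest Y-linked gene in XX controls, and the call was lost with only these groups fitted (0.0577).

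**Figure D4:**
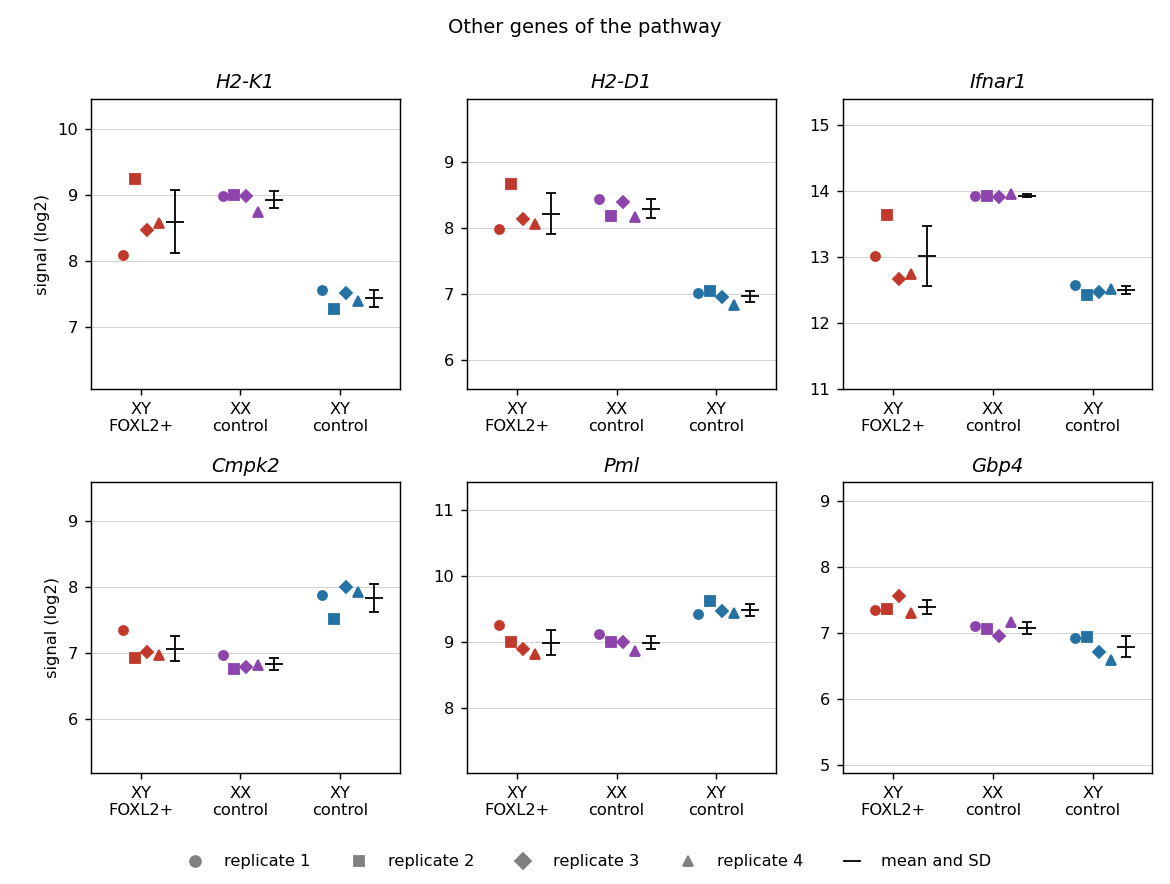
Signal on the log2 scale (vertical axis) of 6 pathway genes, H2-K1, H2-D1, Ifnar1, Cmpk2, Pml and Gbp4, in XY FOXL2+, XX control and XY control gonads, in that order from the left. Symbols are the 4 replicates and bars the mean and SD. Against XY controls, the XY FOXL2+ arrays are higher for H2-K1 and H2-D1 and lower for Cmpk2 and Pml.

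The 13 macrophage and leukocyte markers, all measured, averaged 7.18 to 7.43 per array in XY FOXL2+ gonads, 6.77 to 7.03 in XX controls and 6.93 to 7.17 in XY controls. Between XY FOXL2+ and XY control gonads 4 were higher past the test (C1qb, Mrc1, Adgre1 and Csf1r), beside 3.38% of all named genes, and all 13 had a difference above 0. Against XX controls 4 were higher in XY FOXL2+ gonads (Lyz2, C1qb, Cd68 and Adgre1), beside 3.19%. Between XX and XY controls Lyz2 and Cd68 were lower and Mrc1 was higher in XX controls, beside 11.0% and 10.2%, with a median difference of 0.01 over the 13. The 9 measured endothelial markers averaged 9.67 to 9.87 in XY FOXL2+ gonads, 9.34 to 9.59 in XX controls and 9.45 to 9.64 in XY controls. In XY FOXL2+ gonads, 2 were higher than in XY controls (Emcn and Cldn5), beside 3.38%, and 0 lower. Another count, against XX controls, was 4 higher (Cldn5, Tek, Cdh5 and Tie1), beside 3.19%, and 0 lower. Cdh5, Tek and Esam were lower and Kdr was higher in XX than in XY controls, beside 11.0% and 10.2%. The part of macrophages, leukocytes and endothelial cells in the values of Gbp2, H2-K1 and H2-D1 was not tested. The 5 mesonephros markers averaged 6.44 to 7.18 in XY FOXL2+ gonads, 7.21 to 7.62 in XX controls and 6.34 to 6.62 in XY controls. They did not go one way: against XY controls, Calb1 was higher in XY FOXL2+ gonads (2.77) and in XX controls (3.83). Pax8 was higher in XX controls (1.38, limma adjusted p = 0.000184) and differed by 0.51 in XY FOXL2+ gonads (limma adjusted p = 0.131). In XY FOXL2+ gonads Ret (-0.77) and Lhx1 (-0.60) were lower than in XY controls and Pax2 differed by -0.01. Germ cell markers, 5 of 5 measured, averaged 11.4 to 12.67 in XY FOXL2+ gonads, 11.91 to 12.55 in XX controls and 12.4 to 13.06 in XY controls. They did not go one way either: in XX against XY controls, Dppa3 (-2.22) and Pou5f1 (-1.17) were lower and Dazl (0.91) was higher past the test. Ddx4 (0.42) and Mael (-0.01) did not pass. In XY FOXL2+ against XY control gonads none passed, with differences of -1.21 to 0.35. The part of germ cells in the Bst2 values was not tested.

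The median deviation of the 33 genes from their mean over 12 arrays ran from -0.073 to 0.044 per array, beside -0.045 to 0.022 for all named genes. XY FOXL2+ replicates 1 and 2 had low array weights in limma (0.296 and 0.506). Without any 1 array the Bst2 difference between XY FOXL2+ and XY control gonads stayed between -1.90 and -1.43.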

How the data were processed

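RNA of 12 mouse gonad samples was read on 1-colour arrays, 4 per group. The deposited table holds 1 value per transcript cluster and array on a log scale, taken here as log2 because values run from 2.54 to 19.49. The authors' background correction, summarization, normalization, log base and genome build are not stated in the labels or the deposited table; another base would rescale every difference and leave the tests. Of 72688 rows, 6732 control sets were left out. Clusters were named from the platform annotation: 31254 had 1 symbol, 1496 several and 33206 none listed; 1120 symbols were updated. Levels of different genes were not compared as RNA amounts.

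All 3 groups were fitted together with limma 3.58.1 (lmFit, eBayes with an intensity trend, R 4.3.3) over 65956 rows, with 9 residual degrees of freedom and Benjamini-Hochberg adjustment. On simulated data for XY FOXL2+ minus XY control over 65956 rows, 39 of 50 changes of -1 and 41 of 50 of 1 on the log2 scale were recovered. Of the unchanged rows, 14 were called. The changes were placed only in rows over a set mean signal in XY controls, with normal noise at a spread averaged over the groups. Recovery was thus not measured for genes of lower signal or for a group of wider spread. Array medians were 6.149 to 6.296. Precision rests on 4 arrays per group. Alternatives were quantile normalization, no trend, only the groups compared, array weights, rows above the median signal, a replicate block, the mean of a gene's rows, and each array left out. Named are Bst2, members past the threshold in any comparison and up to 4 pathway genes per list and comparison, those past it with the largest log2 difference; members that did not pass and are given with array values were chosen after their values were seen. Gbp3, Gbp5 and Gbp6 are named as well, beside the other guanylate-binding genes. Genes and lists were chosen with earlier results of these data known.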

Additional observations from a re-analysis of the deposited data

Results flagged for a closer look

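In groups of 4 arrays, 9 of 186 tested groups (4.84%) held 1 array far from the other 3, beside the 1 in 20 that chance gives. Among the interferon-induced genes, Ifit2 read 7.15 in XX control replicate 4, against 6.99 to 7.01 on the other XX arrays. Ifi27 read 9.75 in XX control replicate 1, against 9.40 to 9.44. Lgals3bp read 6.71 in XY FOXL2+ replicate 2, against 6.33 to 6.38, and 6.02 in XY control replicate 1, against 6.17 to 6.20. Among the pathway genes, Ifngr2 read 12.26 in XY FOXL2+ replicate 2, against 12.49 to 12.53, and Cgas read 7.35 in XY control replicate 4, against 7.10 to 7.11. In XX controls, H2-K1 read 8.74 and H2-Aa 5.33 in replicate 4, against 8.99 to 9.01 and 5.27 to 5.28, and Ifnb1 read 5.39 in replicate 2, against 5.57 to 5.60.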

How the results depend on the processing

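Under the alternatives 48 differences past the test were followed, 13 of the listed genes and 35 of pathway genes, the largest of their list and comparison. Of these, 34 passed under every alternative that could be computed (10 and 24), 14 were lost under at least 1 (3 and 11) and 0 reversed. The causes were not tested. Among the 33 genes besides Bst2, XY FOXL2+ minus XY control gave 1 lower gene under quantile normalization and 0 with only these groups fitted, in place of 2, and 2 higher genes under quantile normalization, array weights and rows above the median signal, in place of 1. XX control minus XY control gave 5 lower and 7 higher genes with array weights, in place of 2 and 4. XY FOXL2+ minus XX control gave 1 higher gene with only those groups fitted, in place of 2. In the pathway lists, XY FOXL2+ minus XY control gave 3 lower and 3 higher genes with only these groups fitted, in place of 7 and 6, and 11 higher under quantile normalization. XY FOXL2+ minus XX control gave 9 lower and 12 higher genes with array weights, 2 higher with only those groups fitted and 8 higher with rows above the median signal, in place of 4 and 4.

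Leaving out 1 array gave, for the 33 genes, 1 to 2 lower and 1 to 2 higher in XY FOXL2+ minus XY control, 2 to 3 and 4 to 6 in XX control minus XY control, and 2 to 3 and 1 to 3 in XY FOXL2+ minus XX control. For the pathway lists it gave 5 to 8 lower and 3 to 8 higher, 14 to 19 and 17 to 23, and 3 to 8 and 3 to 12 in the same comparisons, the 12 without XY FOXL2+ replicate 2. The Bst2 differences ranged from -1.90 to -1.43, from 0.36 to 0.73 and from -2.44 to -1.97.

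Replicate numbers recur in each group, and the labels do not say that they pair the samples. Deviations of same-numbered arrays correlated between -0.0906 and 0.179, and 4 of 12 arrays correlated best with their own number. Shared litters or batches could not be tested, since the labels give none. With the replicate block, XY FOXL2+ minus XY control gave 2 lower and 1 higher of the 33 genes, and 2918 lower and 1438 higher rows, in place of 3077 and 1621. Signals near those of Y-linked genes in XX controls limit what the 20 low genes can show.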
